A study of Mus musculus with 9 samples.

Results

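The 9 circular RNAs (circRNAs) of mouse liver described here come from the genomic windows of genes that handle the export of cholesterol and of lipoproteins, namely Ttc39b, Abca1, Apob and Mttp. A member was any array probe named by its mm9 position whose circle lay wholly inside 1 of 4 fixed windows. The windows were chromosome 4, 82870000 to 82970000 (Ttc39b), chromosome 4, 53040000 to 53175000 (Abca1), chromosome 12, 7980000 to 8025000 (Apob), and chromosome 3, 137750000 to 137815000 (Mttp). This gave 9 of the 14043 position-named circRNAs and of the 30534 circRNAs on the array: 3 in the Ttc39b window, 3 in the Abca1 window, 3 in the Mttp window and 0 in the Apob window. The files do not pair probes with genes, so each circle is called after its window, and no exon or intron was assigned to it. The rule used positions, but the windows were chosen by genes whose differences between groups on these arrays were already known, so all differences between groups of the members are given as descriptions.

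The study used male mice of the inbred strain C57BL/6J, aged 20 weeks, in 3 groups with 3 arrays each. Metformin mice were fed a high fat diet (45% of energy as fat) over 17 weeks and were given metformin, a biguanide that lowers blood glucose, at 3 mg per kg per day by gavage in the last 5 weeks. High fat diet mice ate that diet for the same time, with saline by gavage in the last 5 weeks. Control mice were kept on chow over those 17 weeks without any gavage named in the labels, so that diet and gavage cannot be told apart in a comparison with control. Each array carried liver RNA pooled from 4 mice, so the spread between arrays is that between pools and not between single mice. Before labelling, linear RNA was digested over 30 minutes by the exonuclease RNase R, which leaves circles.

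A circRNA is a closed loop made when the end of an exon is spliced back to the start of the same or an earlier exon; it is copied from the transcript of its host gene, and its level need not follow that of the host's messenger RNA. Abca1 encodes a membrane transporter that passes cholesterol and phospholipid to apolipoprotein A-I, the first step in forming high density lipoprotein, and its transcription is activated by the liver X receptors (LXRs). Ttc39b encodes a protein that in mice promotes the ubiquitination and degradation of LXR. Apob encodes apolipoprotein B, the structural protein of very low density and low density lipoprotein, and Mttp encodes the microsomal transfer protein that loads lipid onto it in the endoplasmic reticulum.

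Transcripts of Ttc39b and Abca1, whose windows held the circles with the largest differences for high fat diet minus control, start at the promoters below, shown to give the sequence that precedes them; the arrays measured no binding or activity there. Each is the 250 bases before the annotated start, 5′ to 3′ on the gene's strand, from RefSeq with build GRCm38.p6, a build other than that of the probe positions. The Ttc39b promoter is at chr4:83324190-83324439 and the Abca1 promoter at chr4:53159896-53160145, both on the minus strand. Capitals mark matches to the motifs searched on both strands, none of which overlap. The motifs were the TATA box TATAAA, the E-box with letters CACGTG, the GC box with letters GGGCGG, and a direct repeat of AGGTCA with 4 free bases between its copies, a form of the LXR element.
Ttc39b promoter: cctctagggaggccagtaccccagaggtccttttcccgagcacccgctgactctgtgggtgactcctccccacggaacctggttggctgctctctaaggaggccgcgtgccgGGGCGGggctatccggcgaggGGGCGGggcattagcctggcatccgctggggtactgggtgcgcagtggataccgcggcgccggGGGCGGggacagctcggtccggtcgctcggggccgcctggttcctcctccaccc
Abca1 promoter: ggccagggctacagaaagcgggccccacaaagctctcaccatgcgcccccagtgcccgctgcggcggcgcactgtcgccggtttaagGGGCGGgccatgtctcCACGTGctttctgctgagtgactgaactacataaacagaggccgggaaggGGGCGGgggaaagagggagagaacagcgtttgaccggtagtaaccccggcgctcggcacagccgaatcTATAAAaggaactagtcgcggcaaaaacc
The Ttc39b promoter held 3 GC boxes, beginning 138, 117 and 54 bases before the start. In the Abca1 promoter the TATA box began 29 bases, the E-box 147 bases, and the GC boxes 163 and 97 bases before the start. The Apob promoter held a TATA box 60 bases before the start, and the Mttp promoter held none of these motifs. The direct repeat in those exact letters was in none of the 4 promoters. Imperfect copies of it were not searched, so an LXR element with other letters would have been missed. Among 32851 mouse promoters of that length, 12.4% held the TATA box, 6.02% the E-box, 32.7% the GC box and 0.0152% the direct repeat. A match is a description of the letters only.

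The genomic span of each circle overlapped that of at least 1 other of its window, so members may share sequence, which was not tested. Abca1 circles 1 and 3 do not overlap each other. Circles are numbered by their start. Ttc39b circle 1 spanned 82898890 to 82909705, circle 2 spanned 82901949 to 82909705 and shared its end with circle 1, and circle 3 spanned 82906786 to 82917122. Abca1 circle 1 spanned 53119878 to 53122157, circle 2 spanned 53119878 to 53145887 and shared its start with circle 1, and circle 3 spanned 53140469 to 53156967. Mttp circle 1 spanned 137774608 to 137797099 and contained circle 2 (137778100 to 137781384) and circle 3 (137781277 to 137788209), which overlapped each other by 107 bases. Genomic spans ran from 2279 to 26009 bases with a median of 10336, against a median of 8108 for all position-named circles.

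**Figure D1:**
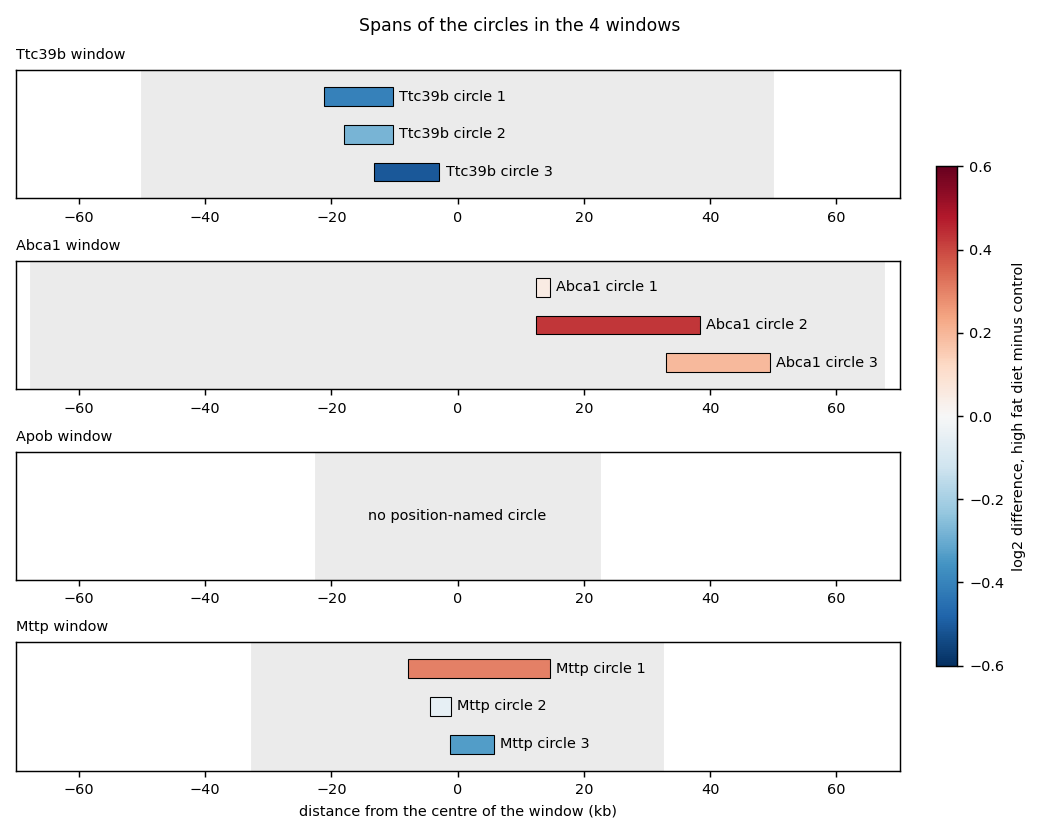
Spans of the 9 circles, as bars, in the 4 windows (grey), by distance in kb from the centre of each window; the colour of a bar is the log2 difference of high fat diet minus control. The darkest bars are Ttc39b circle 3 (-0.51) and Abca1 circle 2 (0.43), and the Apob window has no bar.

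Levels are log2 intensity minus the array's 75th percentile, written as log2 units, so that 0 is the brightness that 75% of the array's probes did not exceed. Levels of different probes are not comparable with each other. Beside each circRNA probe the array holds a partner probe of the same name with the ending _neg. The sources used here do not say what it binds, and its signal may come from other RNA than the circle. Of the 9 members, 8 were well above background on all 9 arrays, and Ttc39b circle 1 on 7. None was saturated. All 9 passed the filter for testing, which asked for a group whose 3 arrays all had the probe well above background. Over the arrays, 69.4% to 84.3% of all probes were well above background, with the lowest shares in metformin replicate 3 (69.4%) and high fat diet replicate 2 (71.8%), and any pair of arrays correlated at 0.973 to 0.993 across circRNAs. As liver is a mixed tissue, fewer cells of a type and less RNA per cell cannot be told apart. Marker genes of liver cells were not analysed here, since probes carry no gene names.

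In the Ttc39b window, all 3 circles had their lowest mean on the high fat diet, with the metformin mean close to the control mean. Circle 1 passed the filter through the control group alone, and the spans of the 3 circles overlap, so they may not be separate readings. Ttc39b circle 3 showed this order of groups with the least overlap between arrays. Its level was -0.40, -0.37 and -0.60 in metformin replicates 1, 2 and 3, -0.84, -1.27 and -0.83 in the high fat diet replicates, and -0.36, -0.60 and -0.45 in the control replicates. Every high fat diet array lay below all 6 other arrays, while the metformin and control arrays overlapped. Its mean was -0.46 ± 0.124 with metformin, -0.98 ± 0.250 on the high fat diet and -0.47 ± 0.119 in control (SD, n = 3 each). Of all circRNAs measured on every array, 1.86% had the same separation of the high fat diet arrays from below.

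The difference of Ttc39b circle 3 was -0.51 ± 0.154 log2 units (SE) for high fat diet minus control, a ratio of 0.702, and its adjusted p in the limma fit over all circRNAs was 0.485. For metformin minus high fat diet it was 0.52 ± 0.154, a ratio of 1.44, with an adjusted p of 0.969 in limma. Neither passed the threshold of 0.05. Metformin minus control was 0.01 ± 0.154. The first 2 comparisons share the high fat diet arrays. Slide and column were read here from the parts of the array barcode. Which part numbers the columns and which the rows was not checked, so a column named here may be a row. The 3 control arrays shared column 1 of the first slide with high fat diet replicate 1. Within that column the difference of high fat diet minus control was -0.37, from 1 high fat diet array and 3 control arrays. Within column 2 of that slide, metformin minus high fat diet was 0.66, from 2 arrays each. Metformin replicate 3 was on a second slide, with no other array of the study. High fat diet replicate 2, which had the lowest level, also had the lowest share of probes well above background in its group; without it the differences were -0.37 and 0.38.

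The partner of Ttc39b circle 3 had the same order of groups. It stood at -1.83, -1.89 and -2.05 with metformin, -2.46, -2.56 and -2.33 on the high fat diet, and -1.90, -1.87 and -1.92 in control. Again every high fat diet array lay below the other 6, as for 2.07% of all partner probes. The partner's difference was -0.56 ± 0.137 for high fat diet minus control and 0.53 ± 0.137 for metformin minus high fat diet. The log2 ratio of circle to partner differed by 0.05 ± 0.120 and -0.01 ± 0.120 in those comparisons, less than its SE. The difference of this circle was therefore as large in its partner and near 0 in the ratio of both; how far the probe reads the circle was not tested.

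Ttc39b circles 1 and 2 share their end. Ttc39b circle 2 stood at 1.54, 1.50 and 1.43 with metformin, 1.34, 0.88 and 1.36 on the high fat diet, and 1.49, 1.31 and 1.62 in control. The metformin arrays all lay above the high fat diet arrays, and the control arrays overlapped with both. Its differences were -0.28 ± 0.156 for high fat diet minus control and 0.29 ± 0.156 for metformin minus high fat diet. Without high fat diet replicate 2 they were -0.12 and 0.14. Its partner differed by -0.16 ± 0.148 and 0.31 ± 0.148, and its ratio to the partner by -0.12 ± 0.0955 and -0.02 ± 0.0955.

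Ttc39b circle 1 was not well above background on high fat diet replicate 2 and metformin replicate 3, so it passed the filter through the control group alone. It stood at -3.49, -3.51 and -3.66 with metformin, -3.66, -4.28 and -4.12 on the high fat diet, and -3.50, -3.88 and -3.47 in control. The groups overlapped in every comparison. Its differences were -0.41 ± 0.179 for high fat diet minus control, 0.46 ± 0.179 for metformin minus high fat diet and 0.06 ± 0.179 for metformin minus control. Within column 1 of the first slide, high fat diet minus control was -0.05. With normexp background correction, metformin minus high fat diet was 0.17 after scaling to the 75th percentile and 0.09 after quantile normalisation, and high fat diet minus control was -0.21 and -0.16. Its partner was well above background on 3 of 9 arrays and was not tested.

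**Figure D2:**
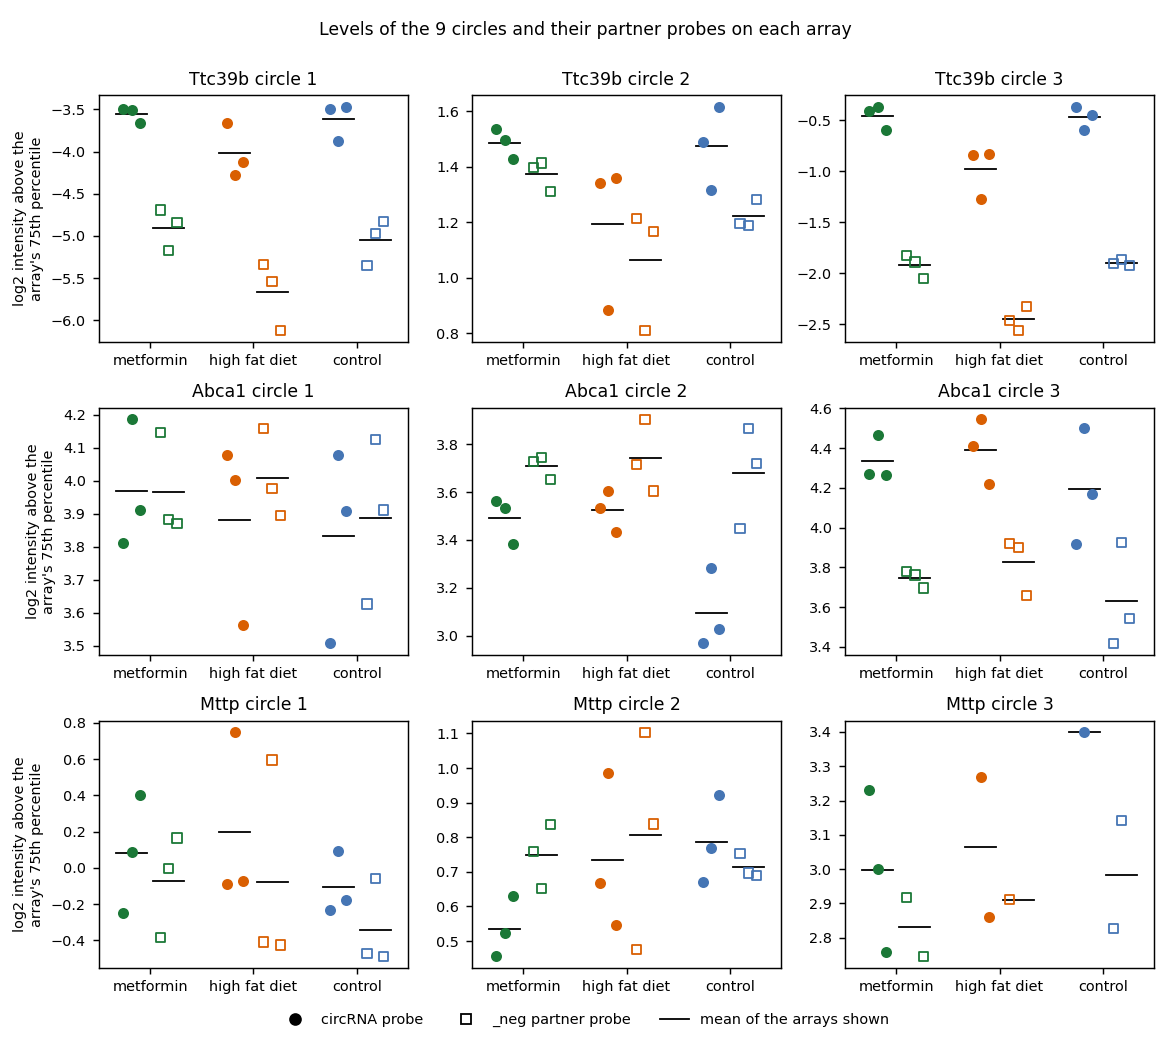
Level of each of the 9 circles (filled points) and of its partner probe (open squares) on each array, in log2 intensity above the array's 75th percentile, with metformin, high fat diet and control from left to right; lines are means of the arrays shown. The high fat diet points of Ttc39b circle 3 lie below those of both other groups, and the control points of Abca1 circle 2 lie below all others.

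In the Abca1 window 1 of 3 circles separated the groups. Abca1 circle 2, the longest member at 26009 bases, stood at 3.56, 3.53 and 3.38 with metformin, 3.53, 3.61 and 3.43 on the high fat diet, and 2.97, 3.28 and 3.03 in control. All 6 arrays of fat-fed mice lay above all 3 control arrays, as for 1.03% of all circRNAs measured on every array, while the metformin and high fat diet arrays overlapped. The means were 3.49 ± 0.0973 with metformin, 3.52 ± 0.0876 on the high fat diet and 3.09 ± 0.166 in control (SD, n = 3 each). The order of the first 2 means is within their spread.

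Abca1 circle 2 differed by 0.43 ± 0.135 log2 units (SE) for high fat diet minus control, a ratio of 1.35, with an adjusted p of 0.505 in the limma fit. For metformin minus control the difference was 0.40 ± 0.135, a ratio of 1.32, with an adjusted p of 0.890 in limma, and for metformin minus high fat diet it was -0.03 ± 0.135. The first 2 differences share the control arrays. Within column 1 of the first slide, the difference of high fat diet minus control was 0.44, from 1 high fat diet array and 3 control arrays; no column of a slide held both metformin and control arrays, so metformin minus control has no value within a column.

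Unlike at Ttc39b circle 3, the partner of Abca1 circle 2 did not separate the groups. It stood at 3.73, 3.74 and 3.65 with metformin, 3.72, 3.90 and 3.60 on the high fat diet, and 3.45, 3.87 and 3.72 in control, and differed by 0.06 ± 0.153 for high fat diet minus control. The log2 ratio of circle to partner was -0.16, -0.21 and -0.27 with metformin, -0.18, -0.30 and -0.17 on the high fat diet, and -0.48, -0.58 and -0.69 in control. The 6 fat-fed arrays were thus above the control arrays in the ratio too, a separation that 1.25% of all ratios had. The ratio differed by 0.37 ± 0.0971 both for high fat diet minus control (adjusted p = 0.952, limma) and for metformin minus control (adjusted p = 0.742, limma). It was below 0 on all 9 arrays, so the partner was brighter than the circle's probe on each.

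The neighbours of that circle overlapped between all groups. Abca1 circle 1, which shares its start, ranged from 3.81 to 4.19 with metformin, from 3.56 to 4.08 on the high fat diet and from 3.51 to 4.08 in control, and differed by 0.05 ± 0.190 for high fat diet minus control. Abca1 circle 3, which overlaps circle 2 by 5418 bases, stood at 4.27, 4.46 and 4.26 with metformin, 4.41, 4.54 and 4.22 on the high fat diet, and 3.92, 4.50 and 4.17 in control. Its difference was 0.20 ± 0.166 for high fat diet minus control, and its ratio to the partner differed by -0.00 ± 0.0990. Whether circle 2 differed from its neighbours in response was not tested.

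The Apob window held no position-named circle, so apolipoprotein B, the protein that Mttp lipidates, has no value here. The nearest position-named circle, at chromosome 12, 8074904 to 8090532, ended 65532 bases beyond the window and did not pass the filter. Circles whose probes are named by a number or code cannot be placed, so circles of Apob, or further circles of the other genes, may be among them.

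In the Mttp window circles 1 and 2 did not separate the high fat diet arrays from the control arrays, and circle 3, with 1 control array left, was not assessed. Mttp circle 1 stood at -0.25, 0.08 and 0.40 with metformin, -0.09, 0.75 and -0.08 on the high fat diet, and -0.23, 0.09 and -0.18 in control. High fat diet replicate 2 was the highest of the 9 arrays, and its partner was high there too, at 0.59. The difference of high fat diet minus control was 0.30 ± 0.234, and 0.02 without that array. Metformin minus high fat diet was -0.12 ± 0.234, and 0.16 without it.

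Mttp circle 2 stood at 0.46, 0.52 and 0.63 with metformin, 0.67, 0.98 and 0.55 on the high fat diet, and 0.67, 0.77 and 0.92 in control. The metformin arrays all lay below the control arrays, and the high fat diet arrays overlapped with both. Metformin minus control was -0.25 ± 0.147 for the circle, 0.04 ± 0.167 for its partner and -0.29 ± 0.146 for their ratio, in which the metformin arrays also lay below the control arrays (8.19% of all ratios). The adjusted p was 0.993 for the circle and 0.850 for the ratio in limma.

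Mttp circle 3 was flagged as an outlier spot by the scanner software on 3 arrays, namely control replicates 1 and 3 and high fat diet replicate 1, and those values were left out. The rest were 3.23, 3.00 and 2.76 with metformin, 3.27 and 2.86 in high fat diet replicates 2 and 3, and 3.40 in control replicate 2. With 1 control array left, metformin minus control was -0.40 ± 0.256 and high fat diet minus control was -0.33 ± 0.271; the lone control array is taken to vary like the other groups. With the flagged spots kept, an alternative chosen after seeing the data, these differences were -0.25 and -0.14. The partner of Mttp circle 3 was flagged on 4 arrays and, with those left out, differed by -0.15 and -0.07 in the same comparisons. The ratio of circle to partner differed by -0.09 for metformin minus control, from 2 metformin arrays and 1 control array. No high fat diet array had both probes unflagged, so the ratio has no value there.

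**Figure D3:**
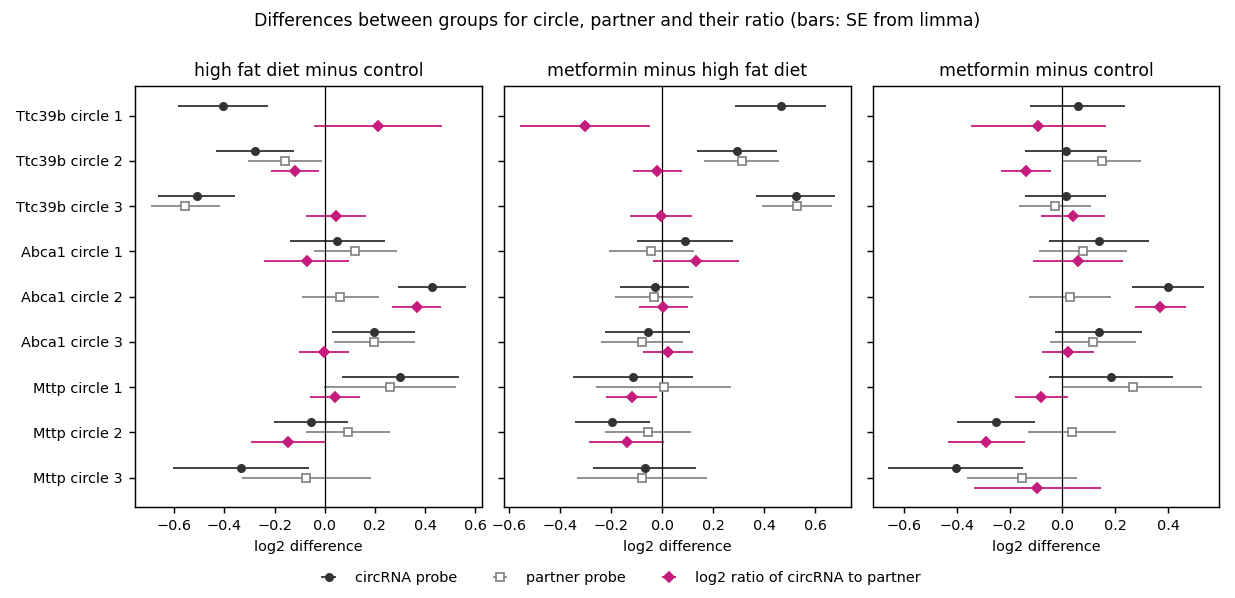
Log2 differences of the 9 circles for the 3 comparisons, with SE from limma as bars, for the circRNA probe, the partner probe and their log2 ratio. At Ttc39b circle 3 the circle (-0.51) and its partner (-0.56) differed alike for high fat diet minus control and the ratio is at 0.05, while at Abca1 circle 2 the circle (0.43) and the ratio (0.37) stand apart from the partner (0.06).

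None of the 9 members passed an adjusted p of 0.05 in limma in any comparison. The same held for all circRNAs tested, at 0% of 25777 for high fat diet minus control, 0% of 25828 for metformin minus high fat diet and 0% of 25763 for metformin minus control. At an unadjusted p under 0.05 in limma, 3 of 9 members (Ttc39b circles 1 and 3, Abca1 circle 2) stood out for high fat diet minus control, against 7.25% of all circRNAs tested. For metformin minus high fat diet there were 2 of 9 (Ttc39b circles 1 and 3), against 3.9%, and for metformin minus control 1 of 9 (Abca1 circle 2), against 5.07%. Ttc39b circle 1 is counted although it passed the filter through control alone, whose mean was above that of the high fat diet. Since the windows were chosen with these results known, nothing is read from these counts.

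Arrays of the compared groups did not overlap at few of the 8 members measured on every array. For high fat diet minus control, 1 member lay higher (3.58% of all circRNAs) and 1 lower (9%). For metformin minus high fat diet, 2 lay higher (5.07%), namely Ttc39b circles 2 and 3, and 0 lower (2.67%). For metformin minus control, 1 lay higher (4.76%) and 1, Mttp circle 2, lower (6.88%).

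The median of the 9 members was within 0.1 log2 units of that of all circRNAs tested in each comparison. Their median difference was -0.05 for high fat diet minus control, against -0.06 over all tested, with 4 members above 0 and 5 below. For metformin minus high fat diet it was -0.03 against 0.03, again with 4 above and 5 below. For metformin minus control it was 0.06 against -0.03, with 7 above and 2 below. The members ranged from -0.51 to 0.43, from -0.20 to 0.52 and from -0.40 to 0.40 in those comparisons. Circle and partner differed in the same direction at 7 of 8 members for high fat diet minus control, and at 6 of 8 in each of the other 2 comparisons.

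Averaged over its circles, the Ttc39b window stood at -0.84 ± 0.0892 with metformin, -1.27 ± 0.257 on the high fat diet and -0.87 ± 0.160 in control (SD, n = 3 each). The high fat diet mean was lower than either of the others by more than these spreads. All metformin arrays lay above the high fat diet arrays, but the control and high fat diet arrays overlapped, since control replicate 2 and high fat diet replicate 1 both stood at -1.05. With normexp and quantile normalisation the window's difference was -0.24 for high fat diet minus control and 0.26 for metformin minus high fat diet, against -0.40 and 0.43 here. The Ttc39b window mean includes circle 1, which passed the filter through control alone. The Abca1 window averaged 3.93 ± 0.113 with metformin, 3.93 ± 0.170 on the high fat diet and 3.71 ± 0.245 in control. The Mttp window, from circles 1 and 2, averaged 0.31 ± 0.207 with metformin, 0.46 ± 0.349 on the high fat diet and 0.34 ± 0.110 in control. In the Abca1 and Mttp windows the group means differed by no more than the largest SD. Leaving out 1 array at a time kept the Ttc39b window below 0 for high fat diet minus control, between -0.51 and -0.26; the last is without high fat diet replicate 2.

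**Figure D4:**
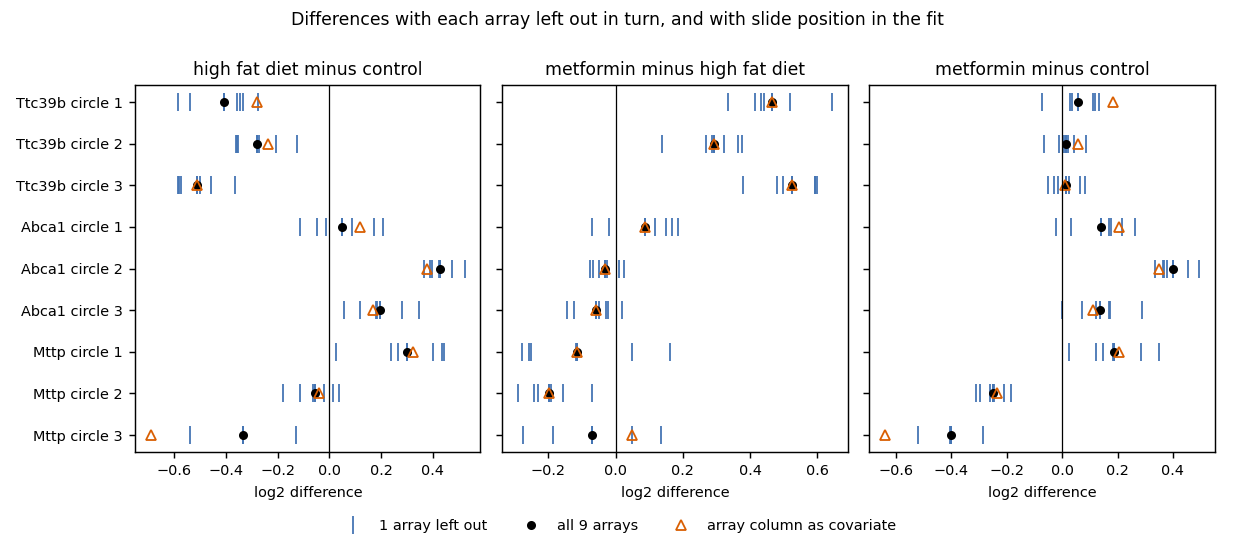
Log2 differences of the 9 circles for the 3 comparisons with all 9 arrays (points) and with each array left out in turn (ticks). Triangles are with the column number read from the array barcode, but not the slide, in the fit. For high fat diet minus control, Ttc39b circle 3 stays between -0.59 and -0.37 and Abca1 circle 2 between 0.37 and 0.52, while Mttp circle 1 comes down to 0.02.

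Across the 9 arrays, the circRNA most like the Ttc39b window mean was at chromosome 9, 53012164 to 53037356 (Pearson r = 0.990), followed by mmu_circ_0003214 (r = 0.972) and mmu_circ_0014011 (r = 0.971). The closest to the Abca1 window mean were mmu_circ_0013095 (r = 0.956), a circle at chromosome 8, 108549806 to 108554343 (r = 0.955) and one at chromosome 2, 101598667 to 101612565 (r = 0.930). Those closest to the Mttp window mean were mmu_circ_0006105 (r = 0.978), Fan_16_148_2242 (r = 0.953) and a circle at chromosome 5, 144134440 to 144136148 (r = 0.950). These are the highest of 24538 probes searched over 9 arrays that share their scaling, and are descriptions only.

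Just outside the rule, 3 circles crossed the end of the Mttp window. The one at 137810339 to 137815305 differed by 0.02 for high fat diet minus control and 0.09 for metformin minus high fat diet, and the one at 137810339 to 137817762 by 0.09 and -0.03. The remaining one did not pass the filter. Beyond the Ttc39b window the nearest circles, at 83073686 to 83082377 and 83081095 to 83082377, differed by 0.11 and -0.02 for high fat diet minus control and by -0.06 and 0.03 for metformin minus high fat diet.

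The authors' deposited table gives another reading of the same members. For the members, the lowest value in the authors' deposited table, -3.32, stood on as many arrays as the partner was the brighter of both probes, where both were measured. Abca1 circle 2 was at that floor on all 9 arrays, and Abca1 circle 1 and Mttp circle 2 were at it on 6 arrays each, so the separation of Abca1 circle 2 described above cannot be seen in that table. Ttc39b circle 3 was above the floor throughout, at 8.55, 8.65 and 8.52 with metformin, 8.22, 7.60 and 8.25 on the high fat diet, and 8.69, 8.28 and 8.48 in control in the authors' deposited table (log2). There too each high fat diet array lay below the other 6, with high fat diet replicate 3 (8.25) close to control replicate 2 (8.28). The share of all circRNAs with that separation in that table was not computed, and its values come from the same scans.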

How the data were processed

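Liver RNA (5 µg per sample, from 15 mg of tissue, per the labels' protocols) was hybridised to 9 1-colour mouse circRNA arrays of 62617 spots. Per the file headers, intensities come from Agilent Feature Extraction 11.5.1.1 on an mm9 grid (the submitters' processing notes name 10.7), and the deposited processed intensity is background-subtracted and not scaled between arrays. The authors also deposited log2 values, whose median was 6.51 on each array. Above the floor, their rank followed the circRNA probe's intensity minus its partner's, with flagged spots kept (Spearman 1.00). Scale and direction follow from these values, and how the floor was set is unknown.

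From the processed intensity, outlier-flagged spots were left out, spots of a probe averaged in log2, and each array's 75th percentile over all non-control probes subtracted. Probes well above background on all 3 arrays of a group were tested (25864 of 30534, 84.7%). One model of the 3 groups was fitted in limma 3.58.1 (R 4.3.3, 6 residual and 5.72 prior degrees of freedom), with Benjamini-Hochberg adjustment within a comparison and a threshold of 0.05. The partner probes were filtered and fitted likewise (22061 tested). The log2 ratios were fitted for the circRNAs whose own probe passed the filter, so they include ratios to partners that did not pass. The fit of the circRNA probes was tested on simulated data for high fat diet minus control, with changes added to the high fat diet arrays. The added changes were larger than any member's difference, so whether differences of the members' size would be called was not tested. The other comparisons and the partner and ratio fits were not tested on simulated data. Window means took the members with a value on all arrays, which leaves 2 circles for Mttp. The number of arrays limits the precision, and pools make p-values measure the spread between pools.

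All 9 members are named in the text, and the 3 circRNAs with the highest Pearson correlation to each window mean. Members and lists were chosen with earlier results of these data known. The wider lipid pathway list and the cell type markers could not be matched, since the files name no genes and the gene table is of another build; positions were not converted. Alternatives were other scalings and filters, normexp with an offset of 50 (on the median intensity, as the files used here hold no mean signal), the partner ratio, the deposited log2 values, array weights, a replicate block, the slide column, and each array left out.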

Additional observations from a re-analysis of the deposited data

How the results depend on the processing

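Under 21 alternatives per comparison, 0 of the 9 members were called in each; the smallest adjusted p of a member in limma was 0.236 for high fat diet minus control, 0.710 for metformin minus high fat diet and 0.457 for metformin minus control. Unadjusted, 0 to 3, 0 to 2 and 0 to 2 members had p under 0.05. Over all circRNAs tested the count of calls was 0 to 19, 0 to 14 and 0 to 23 in those comparisons, against 0 as reported; the highest were with normexp and the 75th percentile for the first, and with the authors' deposited log2 values for the others. Of 183 alternative window mean differences, 174 moved by less than the spread between replicates, and 19 changed sign. The deposited values gave 1.33 for Abca1 and -1.39 for Mttp (high fat diet minus control), 1.69 for Abca1 and -2.21 for Mttp (metformin minus high fat diet), and -0.22 for Ttc39b, 3.02 for Abca1 and -3.60 for Mttp (metformin minus control); Abca1 circles 1 and 2 and Mttp circle 2 stand at the floor there on most arrays. The log2 ratio to the partner gave 0.047 for Ttc39b for high fat diet minus control, against -0.40 from the circRNA probes, and -0.11 against 0.43 for metformin minus high fat diet. For Ttc39b circles 1, 2 and 3 the ratio differed by 0.21, -0.12 and 0.05 in the first comparison. In the other it differed by -0.30, -0.02 and -0.01. The partner of circle 1 was well above background on 3 of 9 arrays only. The cause was not tested. Normexp background correction brought Ttc39b circle 1 for metformin minus high fat diet to 0.17 and, with quantile normalisation, to 0.09, and the Ttc39b window to -0.24 and 0.26 with quantile normalisation. With 1 array left out, the window differences for high fat diet minus control, metformin minus high fat diet and metformin minus control, in that order, were -0.51 to -0.26, 0.28 to 0.53 and -0.06 to 0.08 for Ttc39b, 0.10 to 0.35, -0.10 to 0.06 and 0.10 to 0.35 for Abca1, and -0.08 to 0.24, -0.27 to 0.04 and -0.14 to 0.07 for Mttp. The Ttc39b values of -0.26 and 0.28 and the Mttp values of -0.08 and 0.04 are without high fat diet replicate 2. With the slide column in the fit, Abca1 circle 2 was at 0.38 for high fat diet minus control and Ttc39b circle 3 at -0.51. Metformin replicate 3 alone was on the second slide, and its column 1 was fitted together with column 1 of the first slide. The slide itself was therefore not adjusted for. The replicate block left 0 members called in each comparison (smallest adjusted p 0.441, 0.975 and 0.742 in limma). It gave 4 calls in place of 0 over all circRNAs for high fat diet minus control. Deviations of same-numbered arrays from their group means correlated at -0.14 to 0.19. Differently numbered arrays were not compared, so whether the numbers pair the samples cannot be told from these values. The Ttc39b window mean had no value under the strictest filter on dim probes, the Apob window none anywhere, and trend and robust fits were not run on window means.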
